A study of Homo sapiens with 12 samples.

Results

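The transcription factors that set and hold the luminal epithelial state were followed in 12 bead arrays of a factorial experiment with doxycycline (dox) and the androgen dihydrotestosterone (DHT). The genes were FOXA1, GATA3, SPDEF, ELF3, GRHL2, GRHL3, TFAP2A, TFAP2C and TBX3, with the corepressor TLE1. They were chosen by name, with earlier results of these data known. Counts among them set beside shares of all genes are therefore no independent evidence. Every probe annotated to these 10 genes was taken, which gave 18 of the 30113 probes that carried a single gene symbol, for 10 of 20046 named genes. The cultures were labelled C4-2B, a castration-resistant prostate cancer line of the LNCaP lineage, with a RUNX2 gene that dox switches on. All had been kept for 48 h in medium without phenol red and with 5% charcoal-stripped serum, so that the controls were starved of steroids too. They then received ethanol (vehicle, 3 arrays), dox (3 arrays), DHT (3 arrays) or DHT with dox (3 arrays). Treatment time was recorded as 48 h in every group. The labels state the doses as 10 mM for DHT and 250 µg/ml for dox. Those doses lie far above the usual range for cultured cells, and their unit was not resolved. The labels do not state the promoter of the inducible copy or how many clones the line holds. The arrays of a group were described as biological replicates.

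Luminal cells line the ducts of glands such as breast and prostate, and secrete into them. FOXA1 is a pioneer factor that opens chromatin for steroid receptors, and in breast epithelium it works with GATA3 and the estrogen receptor. SPDEF and ELF3 are ETS factors restricted to epithelia, the grainyhead factors GRHL2 and GRHL3 keep up junction and barrier genes, and the AP-2 factors TFAP2A and TFAP2C and the T-box repressor TBX3 take part in the development of skin and mammary gland. TLE1 belongs to the Groucho corepressors, which bind no DNA themselves and are brought to it by partners, among them the RUNX factors.

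Intensities were quantile-matched between arrays before deposit, and 147.6 intensity units served as the background limit, the 95th percentile of probes for families such as olfactory receptors that epithelial cells are not known to use. All 10 genes lay above this limit on all 12 arrays by their brightest probe. RUNX2 itself had a mean of 214.3 ± 10.1 (SD, n = 3) with vehicle by its brighter probe, 269.8 ± 24.3 with dox, 285.9 ± 23.5 with DHT and 303.9 ± 39.5 with both agents, while its other probe had means of 169.3 with vehicle and 168.0 with dox. Whether these probes read the induced copy is not known here, so they do not check the dox label. The labelled lineage was not borne out by its markers. Among 10 prostate luminal markers, KLK2, FOLH1 and STEAP2 were above the limit on 0 arrays, KLK3 and HOXB13 on 1 of 12, and 3 (TMPRSS2, SLC45A3 and MSMB) on all. Among 12 breast luminal markers, GATA3 included, 8 were above it on all arrays and 3 (SCGB2A2, ANKRD30A and PIP) on none. No fibroblast marker of 8 and no endothelial marker of 5 was above the limit on all arrays. The summed intensity of the fibroblast markers ran from 1070 to 1143 on vehicle arrays and from 1023 to 1106 on dox arrays. The groups are therefore named by their labels only. The summed intensity of the breast luminal markers ran from 68510 to 70342 with vehicle and from 90819 to 94987 with dox, and in the presence of the androgen from 66716 to 71461 without dox and from 87188 to 90286 with it. Its members went both ways, since TFF1 averaged 9173 with vehicle and 20931 with dox and XBP1 10376 and 19685, while ESR1 averaged 4370 and 2838 and GATA3 3888 and 2702. The prostate luminal markers summed to between 2063 and 2141 with vehicle, 1695 and 1727 with dox, 2591 and 2789 with DHT, and 1846 and 1905 with both. The basal markers, of which 3 of 7 were above the limit on all arrays and KRT5 and KRT14 on 0, summed to between 4647 and 5230 with vehicle and between 5322 and 5720 with dox, but under DHT the order turned, from 4580 to 4961 without dox and from 4132 to 4418 with it. The neuroendocrine markers, of which 1 of 5 was above the limit on all arrays and CHGA and SYP on 0, summed to between 756.8 and 807.3 with vehicle, 864.1 and 907.9 with dox, 719.2 and 777.5 with DHT, and 786.5 and 814.6 with both. Such sums lean on their brightest members. Over the 12 arrays TMPRSS2, a prostate marker, ran from 297.7 to 1332.4, and CAV1, a basal marker, from 2514.7 to 4054.8. The sums are therefore not read as shares of cell types. What part their shifts have in the results below was not tested. In such bulk RNA fewer cells of a type and less RNA per cell cannot be told apart. Arrays of a group correlated at 0.994 to 0.995 over the 16255 probes above the limit in at least 1 group, and arrays of different groups at 0.9748 to 0.9927.

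The first comparison was dox against vehicle, without androgen. No array held dox-treated cells that lacked the inducible RUNX2 gene. Effects of dox itself and of RUNX2 induction therefore cannot be told apart in any dox comparison here. On the dox arrays 7 of the 10 genes were lower and 1 was higher, with 2 not called. GRHL3 was 3.25-fold lower, ELF3 2.23-fold lower and TLE1 1.71-fold lower, and these were the 3 that passed 1.5-fold. GATA3 (1.44-fold), SPDEF (1.31-fold), FOXA1 (1.28-fold) and GRHL2 (1.15-fold) were lower by smaller amounts. TFAP2C alone was higher, 1.35-fold. Of all 12118 genes tested, 16.7% were called lower, 16.1% higher and 6.05% called with at least a 1.5-fold change. The groups were fully apart, with every dox array below every vehicle array, for 8 of the 10 genes, against 22.1% of all genes. The median log2 change was -0.37 over the 10 genes and -0.01 over all genes tested. A call is a limma adjusted p under 0.05, Benjamini-Hochberg over all genes tested.

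**Figure D1:**
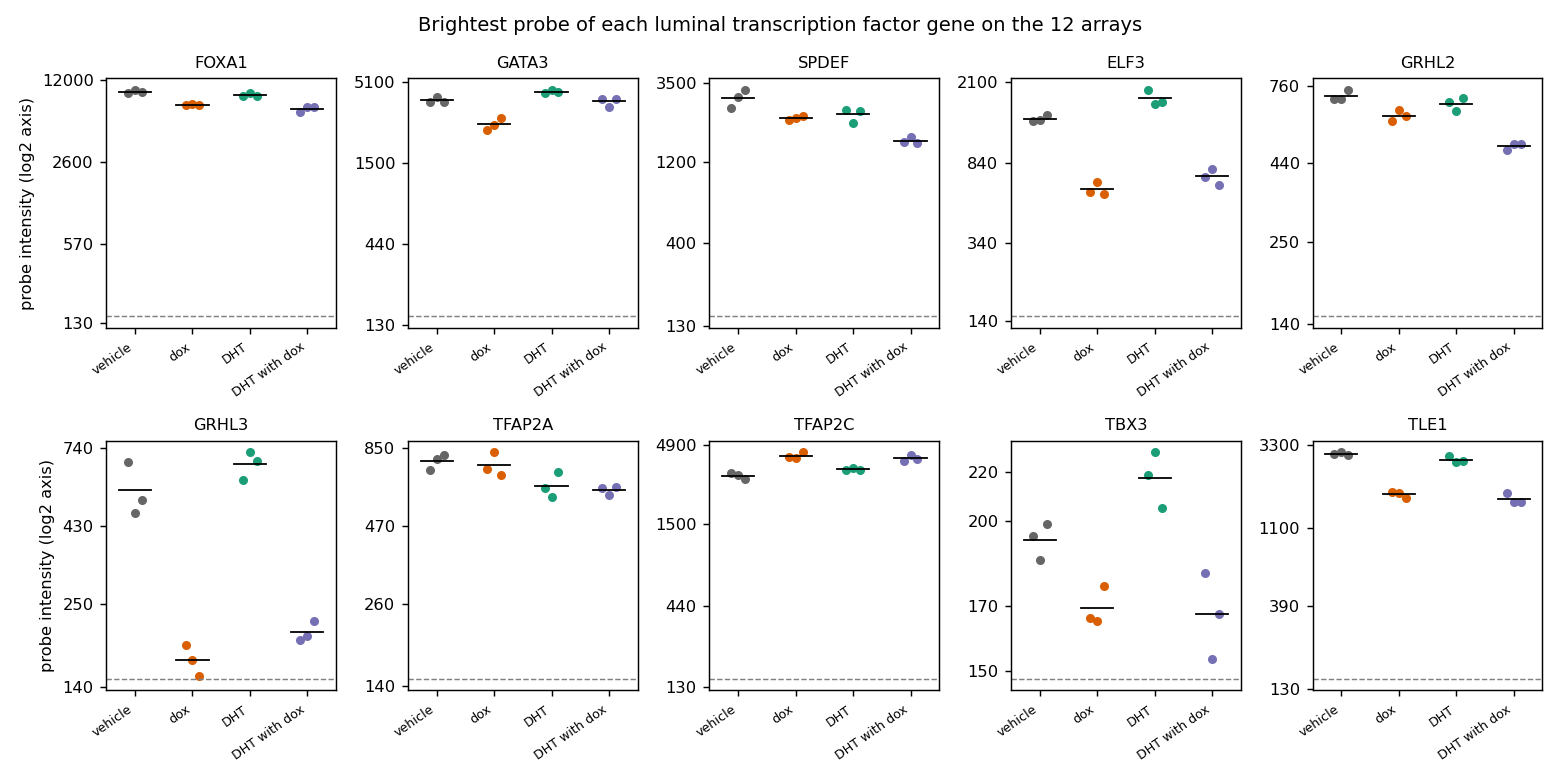
Intensity of the brightest probe of each gene (vertical, log2 axis, scaled per panel) on the 12 arrays. Points are arrays, black bars group means of 3 arrays, and the dashed line the background limit of 147.6. GRHL3, ELF3 and TLE1 lie lower on every array with dox than on any array without it, and TFAP2C lies higher.

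Of the grainyhead factors, GRHL3, which acts in epidermal barrier formation, read 670.7, 471.5 and 514.8 on vehicle arrays and 187.6, 168.5 and 150.4 on dox arrays. Its 3 dox values stood just above the background limit, so that the fall of 1.70 on the log2 scale (SE 0.12, limma adjusted p = 3.51e-10) is compressed by background. It was -3.15 with the background subtracted and -0.88 with the mean of its probes, and was called in each. GRHL2, which upholds epithelial junctions, read 691.7, 689.7 and 738.6 on vehicle arrays and 590.9, 639.2 and 610.8 on dox arrays. The groups did not overlap, but the change of -0.20 ± 0.07 (SE, limma adjusted p = 0.0395) was called narrowly. It lost its call without any 1 vehicle array, without dox replicate 1 or 3, with the replicate block (adjusted p = 0.0516), with only the groups compared (0.0604) and with no filter on dim probes (0.0705), over a range of -0.25 to -0.17.

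Both ETS factors fell. ELF3, an epithelial ETS activator, read 1340.8, 1363.8 and 1443.3 on vehicle arrays and 601.6, 673.5 and 587.7 on dox arrays. Its log2 change was -1.16 ± 0.08 (SE, limma adjusted p = 1.01e-09), and no dox array came near any vehicle array. SPDEF, known in mouse for goblet and other secretory cells, read 2501.5, 2907.8 and 3200.6 on vehicle arrays and 2132.1, 2173.3 and 2254.2 on dox arrays. The groups were apart, with a wider spread among vehicle arrays (SD 351.1) than among dox arrays (SD 62.1), and the log2 change was -0.39 ± 0.09 (SE, limma adjusted p = 0.00129).

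The pioneer factor FOXA1 read 9423.9, 10059.1 and 9722.0 on vehicle arrays and 7596.4, 7650.3 and 7611.4 on dox arrays, a log2 change of -0.35 ± 0.06 (SE, limma adjusted p = 9.07e-05). The groups lay apart, with little spread among the dox arrays (SD 27.8). GATA3, the zinc finger factor needed for luminal mammary cells in mouse, read 3790.2, 4077.6 and 3797.2 against 2472.3, 2679.8 and 2955.2. Every dox array was lower than every vehicle array, and the log2 change was -0.53 ± 0.07 (SE, limma adjusted p = 7.25e-06).

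Of the AP-2 factors, TFAP2C, which takes part in ESR1 expression in breast cancer cells, read 3197.1, 3110.5 and 2939.0 on vehicle arrays and 4083.7, 4012.9 and 4363.7 on dox arrays. It rose by 0.43 ± 0.06 on the log2 scale (SE, limma adjusted p = 1.70e-05), with all dox arrays above all vehicle arrays. TFAP2A was at -0.05 (95% interval -0.23 to 0.13, limma adjusted p = 0.723), and its groups overlapped. TBX3, a T-box repressor, read 194.5, 185.6 and 198.8 on vehicle arrays and 166.1, 165.0 and 176.4 on dox arrays. Its groups did not overlap, but at -0.19 (95% interval -0.37 to -0.01) it was not called (limma adjusted p = 0.0986), nor at -0.56 with the background subtracted, and it stood close to the background limit. The corepressor TLE1 read 2910.7, 2979.6 and 2878.5 on vehicle arrays and 1760.3, 1748.6 and 1622.6 on dox arrays, a log2 change of -0.77 ± 0.07 (SE, limma adjusted p = 1.62e-08) with the groups far apart.

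The promoters of the 3 genes that fell most with dox are shown here, since a shared sequence there is what a reader would look for first, together with 2 promoters of members that hold the letters of the RUNX motif. Sequences are RefSeq's, build GRCh38.p14, and hold the 250 bases before the annotated start, written 5′ to 3′ on the gene's strand. Promoters of 7 of the 10 genes, 14 in all, were searched on both strands, and those of GRHL2, TBX3 and TFAP2C were not used. Capitals mark a match. The RUNX motif was searched as TGTGGT and, in a second spelling, as TGCGGT. The AP-2 motif was GCCNNNGGC. The GATA motif was AGATAA, and here it matched on the opposite strand, so that its reverse complement is in capitals.
GRHL3, first start, chr1:24319107-24319356, plus strand: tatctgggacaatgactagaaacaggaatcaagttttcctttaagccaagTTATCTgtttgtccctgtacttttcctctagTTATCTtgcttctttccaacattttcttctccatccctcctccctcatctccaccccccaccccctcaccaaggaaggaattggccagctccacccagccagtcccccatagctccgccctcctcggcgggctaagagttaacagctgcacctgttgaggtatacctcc
GRHL3, second start, chr1:24322790-24323039, plus strand: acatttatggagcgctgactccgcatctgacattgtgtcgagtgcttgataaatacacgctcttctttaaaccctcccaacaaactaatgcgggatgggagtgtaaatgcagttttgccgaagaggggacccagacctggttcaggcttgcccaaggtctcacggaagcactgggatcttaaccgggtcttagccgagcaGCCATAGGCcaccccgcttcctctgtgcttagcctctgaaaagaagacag
ELF3, chr1:202010337-202010586, plus strand: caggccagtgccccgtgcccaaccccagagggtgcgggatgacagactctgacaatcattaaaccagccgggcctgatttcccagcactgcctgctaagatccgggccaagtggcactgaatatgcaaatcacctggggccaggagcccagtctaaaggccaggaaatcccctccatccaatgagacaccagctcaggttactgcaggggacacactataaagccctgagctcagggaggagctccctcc
TLE1, chr9:81689548-81689797, minus strand: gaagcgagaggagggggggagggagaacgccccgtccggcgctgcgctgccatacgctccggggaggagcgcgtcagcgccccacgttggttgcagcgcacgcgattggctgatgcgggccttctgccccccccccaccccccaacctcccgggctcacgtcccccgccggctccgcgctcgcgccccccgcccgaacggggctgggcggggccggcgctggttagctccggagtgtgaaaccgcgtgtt
SPDEF, chr6:34556330-34556579, minus strand: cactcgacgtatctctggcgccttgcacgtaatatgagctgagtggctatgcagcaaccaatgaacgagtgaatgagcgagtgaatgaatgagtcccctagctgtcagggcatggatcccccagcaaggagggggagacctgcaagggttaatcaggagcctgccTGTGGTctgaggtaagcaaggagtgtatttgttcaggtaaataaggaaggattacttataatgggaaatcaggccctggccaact
GATA3, start 3 of 6, chr10:8050986-8051235, plus strand: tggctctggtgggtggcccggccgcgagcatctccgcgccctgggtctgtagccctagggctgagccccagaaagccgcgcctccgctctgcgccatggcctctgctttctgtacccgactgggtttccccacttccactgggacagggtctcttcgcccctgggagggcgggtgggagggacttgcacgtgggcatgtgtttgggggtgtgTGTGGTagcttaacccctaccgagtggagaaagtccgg

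The printed promoters shared no single motif among those searched. TGTGGT began 85 bases before the start of SPDEF and 38 bases before start 3 of GATA3, and was found in 11% of all 35116 promoters searched. TGCGGT, in 5.84% of promoters, lay before starts 1 and 6 of GATA3, which are not printed. The first GRHL3 promoter held the GATA letters 200 and 169 bases before the start (9.17% of promoters hold them), and the second an AP-2 match 50 bases before it (19.8%). The grainyhead motif AACCGGTT (0.117%), the forkhead motif TGTTTAC (2.98%) and the palindromic estrogen response element (0.0399%) occurred in none of the 14, and the windows of ELF3 and TLE1 held none of the 7 spellings. These are matches of letters in a short window and say nothing of binding.

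The dox contrast was made again among the 6 arrays with DHT, as DHT with dox against DHT. Here 8 of the 10 genes fell and 1 rose, and only TFAP2A was not called (-0.04, 95% interval -0.22 to 0.14). GRHL3 was 3.23-fold lower, ELF3 2.42-fold and TLE1 1.69-fold, again the 3 past 1.5-fold. Of all genes tested, 19.2% were called lower, 14.3% higher and 6.16% with at least a 1.5-fold change. For 8 of the 10 genes every array with DHT and dox was below every DHT array, against 25% of all genes. The median change was -0.41 over the 10 genes and -0.02 over all genes tested.

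GRHL3 read 593.3, 718.0 and 675.8 on DHT arrays and 193.7, 198.8 and 221.9 with DHT and dox, a log2 change of -1.69 ± 0.12 (SE, limma adjusted p = 2.99e-10). ELF3 read 1915.7, 1634.6 and 1660.8 against 717.0, 785.4 and 654.6, a log2 change of -1.27 ± 0.08 (SE, limma adjusted p = 1.83e-10). In neither gene did the groups come close. The GRHL3 change was -2.67 with the background subtracted and -1.10 with the mean of its probes. TLE1 read 2824.9, 2628.7 and 2676.3 against 1733.6, 1534.2 and 1554.3 (log2 change -0.76 ± 0.07, limma adjusted p = 2.07e-08). SPDEF went from 2438.2, 2035.9 and 2392.1 to 1568.3, 1676.2 and 1550.4, a log2 change of -0.51. GRHL2 went from 679.0, 633.1 and 695.5 to 481.6, 501.7 and 500.7, a log2 change of -0.44 (limma adjusted p = 9.30e-05). For these 3 genes all arrays with both agents were lower than all DHT arrays. FOXA1 changed by -0.38 (limma adjusted p = 4.09e-05), from 8934.6, 9547.4 and 8923.5 to 6586.1, 7238.4 and 7278.0. TBX3, at 218.6, 228.3 and 205.1 against 180.9, 153.5 and 167.3, changed by -0.38 (limma adjusted p = 0.00159) and by -1.06 with the background subtracted.

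GATA3 went from 4354.1, 4562.0 and 4405.1 on DHT arrays to 3992.7, 3521.7 and 3956.6 with both agents. The groups were apart, but the change of -0.22 ± 0.07 (SE, limma adjusted p = 0.0241) was no longer called if DHT replicate 2 (-0.20), DHT replicate 3 (-0.22) or replicate 2 of the combination (-0.16) was left out. TFAP2C rose by 0.23 ± 0.06 (limma adjusted p = 0.00674), from 3364.0, 3476.8 and 3354.1 to 3848.0, 4174.9 and 3960.7, with the groups apart.

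**Figure D2:**
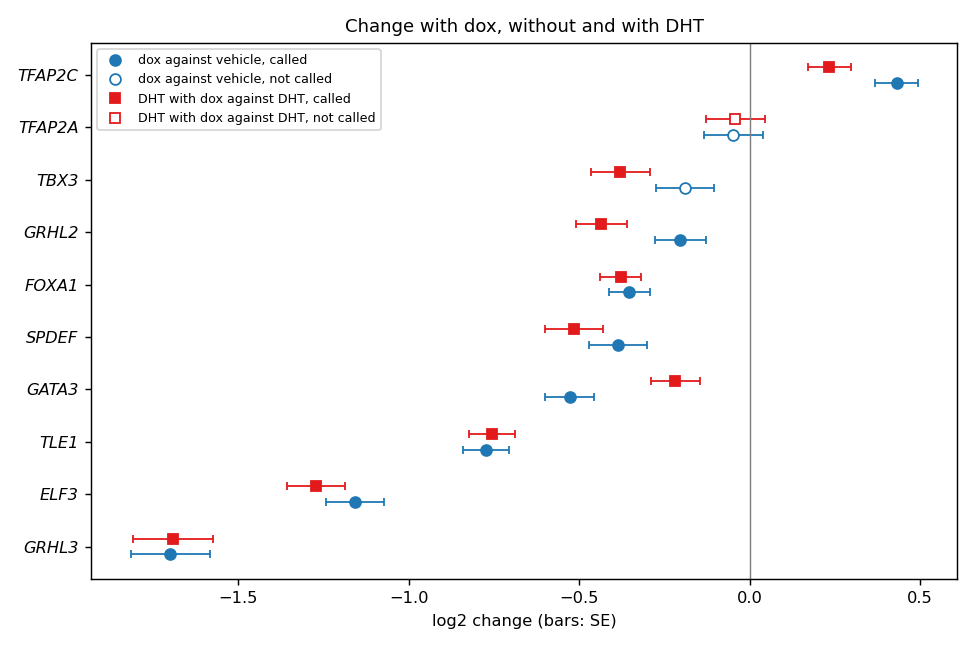
Log2 change with dox (horizontal) for each gene, without DHT (circles, dox against vehicle) and with DHT (squares, DHT with dox against DHT). Bars are the SE of the fit, n = 3 arrays per group, and filled symbols passed the test. GRHL3, ELF3 and TLE1 lie furthest to the left in both settings, and TFAP2C alone lies to the right.

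Whether the dox change differed with DHT present was tested as the interaction, the dox change with DHT minus that without it. It was called by limma for 0 of the 10 genes, where 0.289% of all genes were called. At an unadjusted limma p under 0.05 there were 3. The share of all genes at that looser threshold was not counted, so this count cannot be judged and is not read as an interaction. Those 3 were GATA3 at 0.31 (95% interval 0.10 to 0.52, adjusted p = 0.274), GRHL2 at -0.23 (-0.45 to -0.01, adjusted p = 0.462) and TFAP2C at -0.20 (-0.38 to -0.01, adjusted p = 0.461). For the genes with the steepest dox changes the intervals were -0.33 to 0.35 in GRHL3, -0.37 to 0.13 in ELF3 and -0.18 to 0.22 in TLE1, which leave room for modest differences in either direction.

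DHT against vehicle asks what the androgen changed without dox. ELF3 was 1.25-fold higher and SPDEF 1.25-fold lower, and the other 8 genes were not called. Of all genes tested 4.51% were called higher and 3.1% lower. ELF3 read 1915.7, 1634.6 and 1660.8 on DHT arrays, all above the vehicle arrays, with a log2 change of 0.33 ± 0.08 (SE, limma adjusted p = 0.0205). SPDEF, at 2438.2, 2035.9 and 2392.1, lay below all vehicle arrays, with a log2 change of -0.32 ± 0.09 (SE, limma adjusted p = 0.0219). Both calls were narrow, while both changes kept their direction whichever array was left out. The ELF3 call was lost when vehicle array 1 (0.30), vehicle array 2 (0.32) or DHT array 1 (0.25) was dropped. That of SPDEF was lost when vehicle array 2 (-0.31), vehicle array 3 (-0.24) or DHT array 2 (-0.24) was dropped. The groups were apart with DHT higher in 4 genes (ELF3, GATA3, TFAP2C and TBX3), against 13.9% of all genes, and with DHT lower in 3 (SPDEF, TFAP2A and TLE1), against 11.3%. The changes not called ranged from -0.27 in TFAP2A (limma adjusted p = 0.0624) to 0.27 in GRHL3 (0.169). The TFAP2A change passed the test without vehicle replicate 1 (-0.32) or DHT replicate 3 (-0.35), and the GRHL3 change without vehicle replicate 1 (0.42).

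In the presence of dox, DHT (DHT with dox against dox) raised 1 of the 10 genes and lowered 2, with 7 not called, where 2.04% of all genes were called higher and 2.24% lower. GATA3 was the gene that rose, from 2472.3, 2679.8 and 2955.2 on dox arrays to 3992.7, 3521.7 and 3956.6 with both agents, which was 1.42-fold (log2 change 0.50 ± 0.07 SE, limma adjusted p = 0.000175). All arrays with both agents stood above all dox arrays, and at a mean of 3824 ± 262.1 (SD, n = 3) they were close to the vehicle mean of 3888 ± 163.9. SPDEF fell by 0.45 on the log2 scale (limma adjusted p = 0.00295), from 2187 ± 62.1 to 1598 ± 68.1. GRHL2 fell by 0.31 (limma adjusted p = 0.0192), from 613.6 ± 24.3 to 494.7 ± 11.3, a call lost when dox array 2 (-0.28), dox array 3 (-0.31) or array 1 (-0.29) or 3 (-0.32) of the combination was dropped. Neither gene's groups overlapped. ELF3 (0.21, 95% interval 0.03 to 0.39) and GRHL3 (0.28, 0.04 to 0.52) were not called, although with the background subtracted the GRHL3 change was 0.83 and passed (limma adjusted p = 0.0473). TLE1 was at -0.09 (-0.23 to 0.05) and FOXA1 at -0.12 (-0.24 to 0.01).

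**Figure D3:**
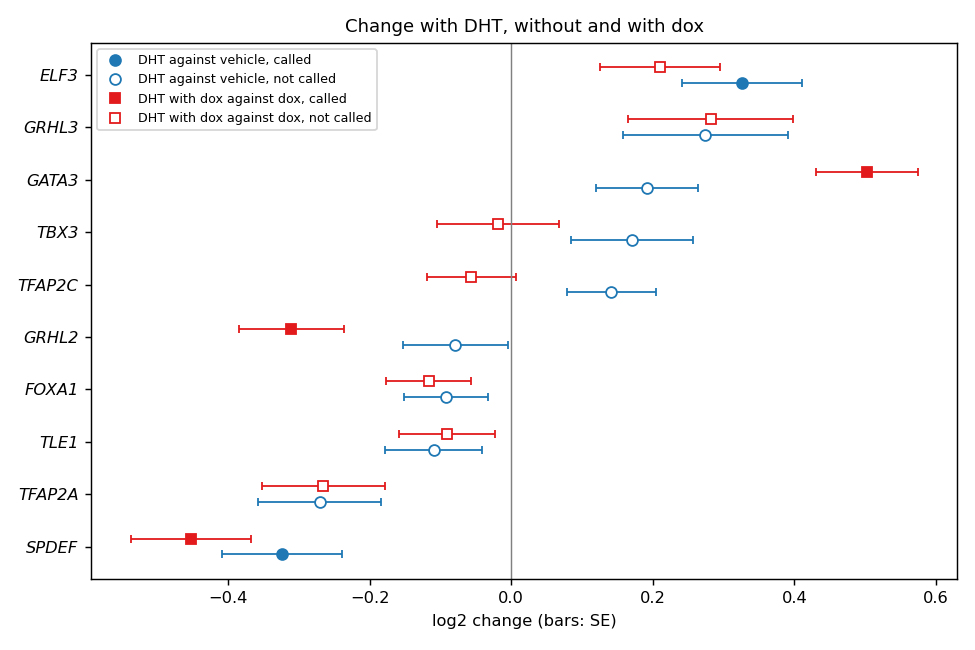
Log2 change with DHT (horizontal) for each gene, without dox (circles, DHT against vehicle) and with dox (squares, DHT with dox against dox). Bars are the SE of the fit, n = 3 arrays per group, and filled symbols passed the test. GATA3 with dox lies furthest to the right at 0.50, and SPDEF lies to the left in both settings.

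Against vehicle, the arrays with both agents shared their controls with the single treatments. TFAP2C rose and 7 genes fell, where 16.6% of all genes were called higher and 20.2% lower. SPDEF, lower with each agent, was 1.79-fold lower with both (log2 change -0.84 ± 0.09 SE, limma adjusted p = 1.09e-07). GRHL3 was 2.67-fold (log2 change -1.42, or -2.32 with the background subtracted and -0.85 with the mean of its probes), ELF3 1.93-fold, TLE1 1.82-fold, GRHL2 1.43-fold and FOXA1 1.38-fold lower. TFAP2A was 1.24-fold lower (limma adjusted p = 0.00711), a call that was lost when its probes above background were averaged (-0.14, adjusted p = 0.128). GATA3, at -0.03 (95% interval -0.18 to 0.13), was not called, and neither was TBX3 (-0.21, limma adjusted p = 0.0622). The TBX3 change passed with the mean of probes above background, which in this gene is the same probe, with the background subtracted (-0.66), with no trend in the prior variance, or without DHT with dox replicate 1 (-0.27).

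The order of the groups differed between genes. In GRHL3 and ELF3 the dox arrays were lowest, then DHT with dox, vehicle and DHT. Dox and DHT with dox overlapped in ELF3 but not in GRHL3, and vehicle and DHT overlapped in GRHL3 but not in ELF3. In FOXA1, SPDEF, GRHL2 and TLE1 the arrays with both agents were lowest, then dox, DHT and vehicle. Among these, dox and DHT with dox overlapped in TLE1, DHT and vehicle in FOXA1 and GRHL2, and dox and DHT in SPDEF and GRHL2. GATA3 ran from dox through DHT with dox and vehicle, which overlapped, up to DHT. TFAP2C ran the other way, with vehicle lowest, then DHT, DHT with dox and dox, the last pair overlapping. TBX3 ran from DHT with dox and dox, which overlapped, through vehicle to DHT. In TFAP2A the arrays with DHT, with and without dox, overlapped each other, as did dox and vehicle, and also dox and DHT.

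Dimmer probes were set beside the brightest ones for the 4 genes with several. In TFAP2C the second probe (ILMN_1683891) moved as the first did, with 2045.1, 2052.6 and 1968.9 on vehicle arrays and 2857.4, 3261.7 and 2891.7 on dox arrays. Its log2 change was 0.57 for dox against vehicle and 0.22 for DHT with dox against DHT (limma adjusted p = 0.0355 over 16255 probes). By this probe TFAP2C also rose with DHT alone, by 0.26 (limma adjusted p = 0.0473), where the first probe was at 0.14. In GRHL3 the second probe (ILMN_2388874) changed by -0.65 with dox and by -0.89 with dox under DHT. It read 168.3, 171.6 and 150.0 on dox arrays, close to the limit. With both agents it was above the limit on 1 of 3 arrays. The probe ILMN_1662961, annotated to another transcript of the gene, changed by -0.28 with dox and was above the limit on 1 of 3 dox arrays. It was on 0 of 3 arrays with both agents, where it was at least 1.41-fold lower than with DHT. By that probe GRHL3 rose with DHT by 0.35 (limma adjusted p = 0.0309), against 0.27, not called, by the brightest. All 3 GRHL3 probes fell with dox in both settings. The 4 other TFAP2A probes averaged 175.1 or less over the 12 arrays and 1 of them was above the limit on 0 arrays. None of the 3 that could be tested was called in any comparison, and the second TBX3 probe was above the limit on 1 of 12 arrays.

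**Figure D4:**
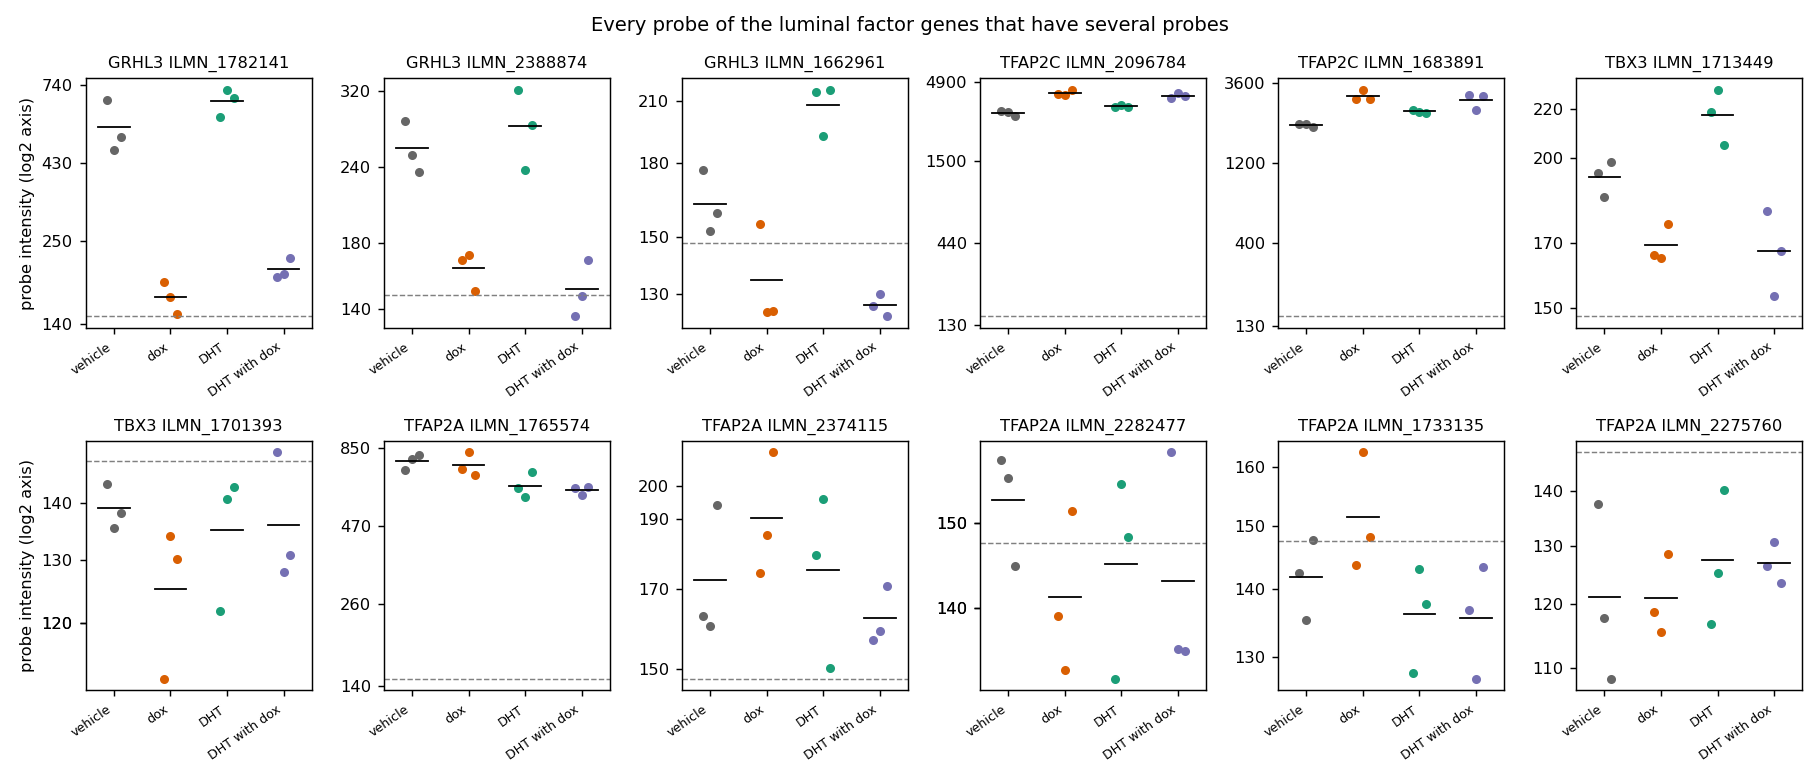
Intensity of each probe (vertical, log2 axis, scaled per panel) of GRHL3, TFAP2C, TBX3 and TFAP2A on the 12 arrays, with group means of 3 arrays as black bars and the background limit of 147.6 as a dashed line. The 3 GRHL3 and both TFAP2C probes keep their direction with dox, while all TFAP2A probes but the brightest lie near the limit.

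Of 27 relatives of these genes in the same protein families, 14 were tested, and 12 of these lay above the limit on all 12 arrays. With dox 5 fell, 3 rose and 6 were not called (median log2 change -0.13), where 16.7% of all genes were called lower and 16.1% higher. One of the 5 was TLE6, whose vehicle and dox arrays were all below the limit, so that its -0.28 compares values at background, and its call was lost with the background subtracted (-0.18, adjusted p = 0.689). With dox under DHT 7 fell, 0 rose and 7 were not called (median -0.20), where 19.2% of all genes were called lower and 14.3% higher. The epithelial ETS gene ELF5, which directs alveolar cells in mouse mammary gland, was 1.71-fold lower with dox and 1.82-fold lower with dox under DHT, at means of 478.1 (vehicle), 280.3 (dox), 422.8 (DHT) and 232.6 (both). The other ETS relatives tested, ELF1 (0.17 and 0.06), ELF2 (0.02 and -0.12) and ELF4 (-0.10 and 0.05), were not called in either setting. TBX2, the closest relative of TBX3, fell by 0.43 and 0.53 on the log2 scale. TBX4, above the limit on 0 of 6 arrays with dox, was at least 1.06-fold lower without DHT and at least 1.02-fold lower with it, and neither call held with the background subtracted. Among the Groucho genes, TLE2 changed by -0.50 and -0.65 and TLE5 by -0.16 (not called) and -0.24. TLE6, above the limit only on DHT arrays, was at least 1.201-fold lower with dox under DHT. TLE6 passed the filter on dim probes only through the DHT arrays, and TBX4 only through groups without dox. The filter thus favours the TBX4 falls and that of TLE6 under DHT. TLE3 and TLE4 went the other way from TLE1, at 0.25 and 0.28 with dox, while under DHT they were at 0.13 and 0.17, not called. Of the grainyhead relatives, GRHL1 rose by 0.34 with dox and was at 0.17 under DHT, not called, and UBP1 was at -0.15, not called, and -0.29. GATA2 was not called in either setting (-0.11 and -0.16), and FOXA2, FOXA3, TFAP2B and TFAP2D were above the limit on 0 arrays. The dox calls of TLE3, TLE4 and TLE6 and the TLE5 call under DHT were each lost when a single array was left out, and TLE3 was at 0.16 without dox replicate 2. With the background subtracted, changes of dim relatives were larger and kept their calls, with ELF5 at -1.16 and -1.43, TLE2 at -1.12 and -1.27, TLE6 under DHT at -1.54, and with dox GRHL1 at 0.66, TLE3 at 0.73 and TLE4 at 0.51. TLE5 was called with dox by the mean of its probes (-0.26).

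Other regulators of luminal cells moved in both directions. Of 14 tested, 5 rose and 5 fell with dox, and 4 rose and 5 fell with dox under DHT. The shares of all genes called higher and lower were 16.1% and 16.7% with dox, and 14.3% and 19.2% under DHT. MYB, a proto-oncogene expressed with the estrogen receptor, rose 4.62-fold and 4.48-fold, at means of 451.8, 2082, 357.5 and 1607 on vehicle, dox, DHT and DHT with dox arrays. PGR, the progesterone receptor, was above the limit on the 6 arrays with dox only, where it was at least 2.43-fold higher without DHT and, with DHT present, at least 1.97-fold. XBP1, a factor of secretory cells, rose by 0.92 and 0.67 and KLF4 by 0.62 and 0.39. SOX9, a factor of progenitor cells, fell in both settings, by 1.03 with dox, and ZNF217 changed by -0.41 and -0.67. Of the basal and mesenchymal regulators with a probe, 2 of 8 could be tested. SNAI2 was at least 1.49-fold lower with dox. TWIST1, above the limit on dox arrays only, was at least 1.10-fold higher with dox. That call was lost without vehicle replicate 2 or 3 or dox replicate 3. With dox under DHT the TWIST1 change was -0.008, not called. PGR and TWIST1 passed the filter on dim probes only through groups with dox, and SNAI2 only through groups without it. The filter thus favours these changes. With the background subtracted, SOX9 was at -1.94 and -1.71, PGR at 3.58 and 3.10, SNAI2 at -2.26 and -2.72, and TWIST1 with dox at 1.03, all called.

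Genes that these factors are known to act on were also counted. Beside these counts, 16.7% of all genes were called lower and 16.1% higher with dox. With dox under DHT the shares were 19.2% and 14.3%. Of 14 tested targets of grainyhead factors, which build junctions and proteolytic barriers, 8 fell and 0 rose with dox (median -0.25), and 6 fell and 0 rose with dox under DHT (median -0.19). The membrane protease gene PRSS8 changed by -0.69 and -0.76, its inhibitor SPINT1 by -0.55 and -0.53, and the claudin genes CLDN7 and CLDN3 by -0.70 and -0.54 with dox. RAB25, a trafficking gene of epithelia, changed by -0.35 and -0.46. CLDN4 fell by 0.48 with dox and was at -0.14 under DHT, not called. CDH1, EPCAM and ESRP1 were not called in either setting, at changes of 0.11, 0.03 and -0.03 with dox. With the mean of its probes SPINT1 was at -0.29 with dox, and with the background subtracted CLDN4 was at -1.02, both called. Of 8 luminal keratin and surface genes, 5 fell and 2 rose with dox and 5 fell and 1 rose under DHT. The receptor genes ERBB2 (2.23-fold and 2.26-fold) and ERBB3 (1.60-fold and 1.81-fold) were lower, as were CD24 (-0.40 and -0.64), MUC1 (-0.55 and -0.63) and KRT7 (-0.53 in both), while KRT18 rose by 0.45 and 0.31. ERBB3 was at -0.31 and -0.35 with the mean of its probes, and KRT7 at -1.32 and -1.03 with the background subtracted, all called.

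Most of the tested genes on the luminal secretory list rose with dox, as TFAP2C alone did among the factors. The list is not limited to secreted products, since CA12 and SLC39A6 are membrane proteins. Of 8 tested, 6 rose and 1 fell with dox (median 0.84), and 6 rose and 0 fell with dox under DHT (median 1.04). The shares of all genes called higher and lower were 16.1% and 16.7% with dox, and 14.3% and 19.2% under DHT. AGR3 rose 3.60-fold and 3.37-fold (the latter a log2 change of 1.06 with the mean of its probes), the trefoil gene TFF1 2.28-fold and 3.10-fold, STC2 2.22-fold and 2.88-fold, TFF3 2.18-fold and 2.44-fold, and the carbonic anhydrase gene CA12 1.48-fold and 1.73-fold. SLC39A6 rose 1.22-fold and 1.30-fold. MUCL1 fell by 0.40 with dox and was at -0.21 under DHT, not called. AGR2 was not called in either setting (0.05 and -0.08). These lists hold few genes, were picked for what is known of them and were not compared with other genes beyond the shares called given above.

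**Figure D5:**
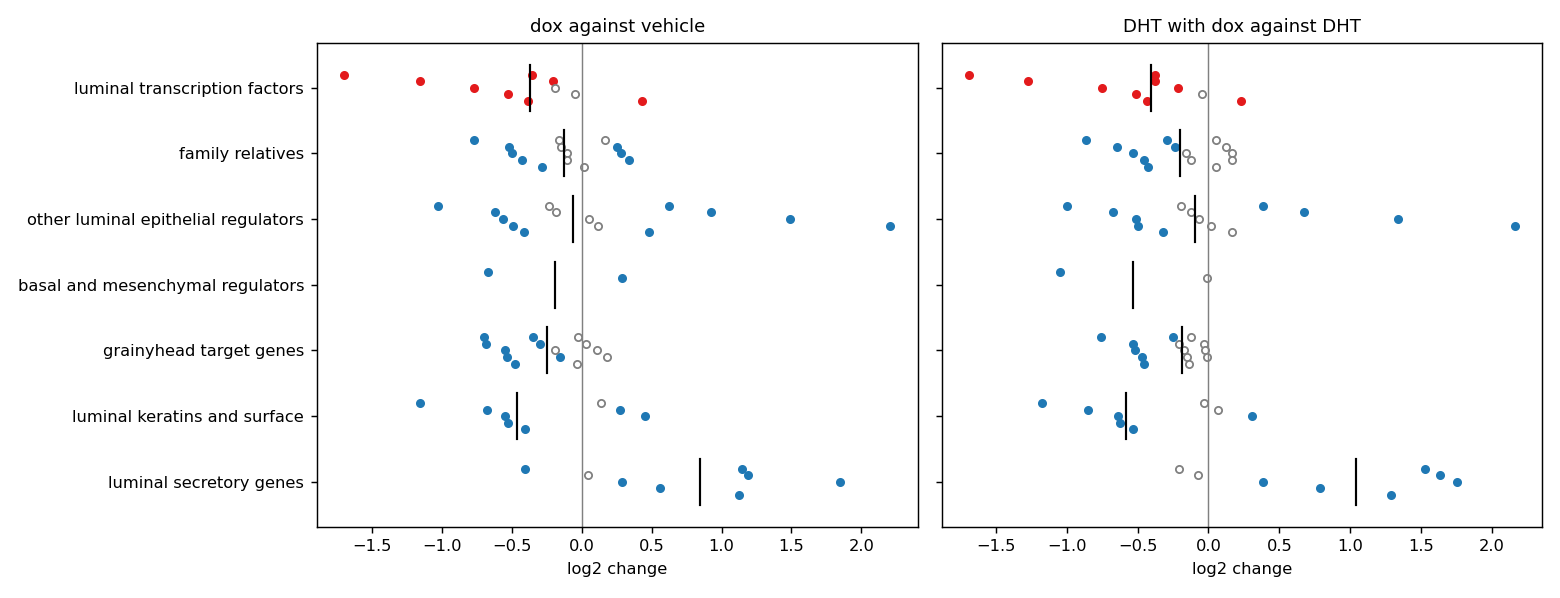
Log2 change with dox (horizontal) without DHT (left) and with DHT (right) for the luminal transcription factors (red) and the related gene lists (blue), one point per tested gene. Filled points passed the test, open points did not, black bars are list medians, and vertical spread within a row only separates points. The factors' medians are -0.37 and -0.41, and those of the luminal secretory genes 0.84 and 1.04.

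The genes whose values over the 12 arrays were most like those of the 3 factors with the largest dox changes were found by the root mean square difference of log2 values, each gene centred on its own mean. For ELF3 these were SCNN1A, a subunit of the epithelial sodium channel (difference 0.10), and ALAD, an enzyme of heme synthesis (0.10). For GRHL3 they were LIMA1, which binds actin (0.17), and TP53INP1 (0.19). For TLE1 they were the sulfatase family gene ARSD (0.07) and the adhesion gene NCAM2 (0.08). SCNN1A averaged 806.4, 331.8, 913.7 and 435.8 on vehicle, dox, DHT and DHT with dox arrays, and LIMA1 756.5, 273.1, 885.2 and 286.1. All 6 genes had lower means with dox in both settings, which the search itself favours.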

How the data were processed

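Expression was read on 12 single-colour Illumina bead arrays, 4 groups of 3. The deposited values are linear probe intensities. GenomeStudio is the tool named, per the submitters' processing notes, while its version, background step and normalization were not given in the sources used here. Once sorted, the 12 arrays held nearly the same values (0.8 units apart at most, median 137.6, range 84.1 to 27321.9), so no further normalization was applied. Background signal was still present and compresses the changes of dim probes. The number of arrays limits the precision, and no scan date or slide was used.

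Of 47230 probes, 30113 had a single gene symbol in the platform annotation, 30074 of them updated by gene identifier through RefSeq's gene table (GRCh38.p14). Intensities were floored at 20 (0 values lay below) and taken as log2. The limit came from 629 probes of 527 beta-defensin, taste receptor, keratin-associated and olfactory receptor genes. Genes with a probe whose group mean of log2 values was above it in at least 1 group were tested by their probe with the highest mean, 12118 in all. The 4 group means were fitted together with limma 3.58.1 (lmFit, eBayes with a trend) in R 4.3.3, with two-sided p-values adjusted by Benjamini-Hochberg at 0.05. Dimmer probes of the described genes were tested in a second fit over 16255 probes. Where a probe was above the limit on no array of a group, its fold is a bound ("at least"). Folds are from means of log2 values, and the means ± SD in the text are of intensities. The script was tested on simulated data. Tables were made in Python 3.11.15 (numpy 2.4.6, pandas 2.3.3) and plots in matplotlib 3.10.9. P-values rest on the spread between arrays within groups, pooled over the 4 groups for each gene and moderated by eBayes.

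All 10 genes were named. From each list the genes named were those called with dox in either setting, at most the 6 with the largest change, plus relatives in the same family. CDH1, EPCAM, ESRP1, ESR1, GATA2, ELF1, ELF2, ELF4, AGR2, SLC39A6 and the dim relatives were named after their values were seen. The genes and lists were chosen with earlier results of these data known, so they are no independent evidence. Alternatives covered the dim-probe filter, the mean of probes, background subtraction, array centring, the groups in the fit, the prior trend, a replicate block and leaving out each array.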

Additional observations from a re-analysis of the deposited data

How the results depend on the processing

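The counts of called genes among the 10 were 8 for dox against vehicle, 9 for DHT with dox against DHT, 2 for DHT against vehicle, 3 for DHT with dox against dox, 8 for DHT with dox against vehicle and 0 for the interaction. Leaving out 1 array at a time they ranged from 7 to 8, 8 to 9, 0 to 3, 2 to 3, 8 to 9 and 0 to 0. DHT against vehicle moved most, with 0 calls without vehicle replicate 2, and 1 call when vehicle array 3 or DHT array 1 or 2 was dropped. Under the other alternatives the counts were 7 to 8, 9 to 9, 2 to 3, 3 to 4, 8 to 9 and 0 to 0. No called change of the 10 genes turned its direction under an alternative. Among single changes of the 10 genes, 18 calls were lost and 4 gained with an array left out, against 698 that kept their side of the threshold, and 4 were lost and 5 gained with other settings, against 461. Besides those named in the report, TFAP2C gained a call for DHT against vehicle with the mean of its probes (0.20). The cause of these shifts was not tested. Arrays of the same number did not deviate together: 1 of 18 pairs had a correlation over 0.1 (range -0.121 to 0.208), and 2 of 12 arrays correlated best with their own number. The replicate block was therefore only an alternative, and it took the count for dox against vehicle from 8 to 7 (GRHL2, adjusted p = 0.0516). Over all genes the count for DHT against vehicle, 922, was 551, 556 and 605 without vehicle replicate 3, DHT replicate 1 and DHT replicate 2. That for DHT with dox against dox, 518, ranged from 253 to 538 over all arrays left out in turn, with 329, 300 and 253 without dox replicates 1, 2 and 3 and 313 and 275 without replicates 1 and 3 of the combination. That for the interaction, 35, ranged from 9 (without dox replicate 3) to 52 (without vehicle replicate 1), and was 18 with the background subtracted. It fell by over 1.5 times also without vehicle replicate 2 (17), dox replicate 1 (16), DHT replicate 1 (16) or 2 (14), and replicate 2 (21) or 3 (18) of the combination. Probes near the background limit (TBX3, GRHL3 with dox, most TFAP2A probes) are limited by signal over background.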
